A study of Mus musculus with 4 samples.

Results

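The vascular endothelial growth factor (VEGF) and angiopoietin genes followed here are 10 of the 32285 genes in the deposited count matrices. They are the receptor genes Flt1, Kdr, Flt4, Tek and Tie1, the co-receptor gene Nrp1 and the ligand genes Vegfa, Vegfc, Angpt1 and Angpt2. They were chosen by symbol, not by their values, and all 10 were found. The data are single-nucleus RNA profiles of aortic tissue from mice, read as unique molecular identifiers (UMIs, 1 per captured transcript) at the 3' end. All the mice carried the CA1 knockin on the ApoE-/- background, so no group shows these genes without both alleles. There were 4 groups with 1 library each: high-fat food with methoxazolamide (MTZ) started after atherosclerosis had been established (MTZ-after), high-fat food with MTZ from the same time (MTZ-simultaneous), high-fat food alone (high-fat), and no treatment (untreated). The title of the series describes MTZ as an inhibitor of CA1. The number, age and sex of the mice behind a library are not in the sources used here. No difference between groups could therefore be set against the spread between animals, and every interval is a 95% interval for counting error only.

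VEGF-A acts through Flt1 (VEGFR1, which binds it tightly and limits its availability) and Kdr (VEGFR2, the main signalling receptor for endothelial growth and permeability), with Nrp1 as a co-receptor. VEGF-C acts mainly through Flt4 (VEGFR3), the receptor of lymphatic endothelium, and after processing also through Kdr. Angiopoietin-1, made largely by mural and stromal cells, activates Tek (Tie2) and keeps vessels quiet. Angiopoietin-2, stored and released by endothelium itself, often opposes it, and Tie1 is a partner of Tek with no angiopoietin ligand of its own. In an artery these genes are known for the large-vessel lining, for the small vessels of the wall and the fat around it, and for lymphatics.

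The promoters of 3 receptor genes are shown because their transcripts marked endothelial nuclei in these libraries: Flt1 was highest in capillary-like nuclei, Kdr in capillary-like and lymphatic-like nuclei, and Tek in the large endothelial classes. Each line is 240 bases upstream of the RefSeq start on the GRCm38.p6 build, from the strand of the gene, at chr5:147726022-147726261 (minus strand) for Flt1, chr5:75978466-75978705 (minus strand) for Kdr and chr4:94739039-94739278 (plus strand) for Tek. Capitals mark the words searched.
Flt1: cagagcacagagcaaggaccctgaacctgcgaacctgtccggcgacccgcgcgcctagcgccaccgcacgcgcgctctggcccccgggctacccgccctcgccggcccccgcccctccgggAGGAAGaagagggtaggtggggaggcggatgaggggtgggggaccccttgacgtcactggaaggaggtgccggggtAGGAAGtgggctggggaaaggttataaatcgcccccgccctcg
Kdr: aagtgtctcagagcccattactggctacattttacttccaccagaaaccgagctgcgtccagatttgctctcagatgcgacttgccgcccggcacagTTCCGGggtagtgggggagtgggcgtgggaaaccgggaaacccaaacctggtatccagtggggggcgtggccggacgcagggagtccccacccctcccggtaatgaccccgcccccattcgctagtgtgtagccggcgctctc
Tek: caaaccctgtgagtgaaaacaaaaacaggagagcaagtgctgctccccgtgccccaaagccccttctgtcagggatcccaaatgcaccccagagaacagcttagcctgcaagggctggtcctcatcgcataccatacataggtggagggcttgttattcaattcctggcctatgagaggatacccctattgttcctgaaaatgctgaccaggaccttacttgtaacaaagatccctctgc
The search covered both strands of the 250 bases before the start. The first word was AGGAAG, a core bound by transcription factors of the ETS family. Another core of the same family was CCGGAA, which shares its GGAA letters. For factors of the GATA family it was AGATAA. For hypoxia-inducible factors the search used ACGTG. The Flt1 window held AGGAAG at 2 places, and 29.5% of 32851 RefSeq promoters hold it at least once. The Kdr window held CCGGAA once, on the other strand as TTCCGG, and 12.03% of promoters hold it. None of these words was in the Tek window. RefSeq entries were matched for 8 of the 10 members, and Angpt1 and Angpt2 are named only. These matches describe the letters and say nothing of binding.

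In the GENCODE vM21 annotation of GRCm38 (the mm10 build), Flt1 spans chr5:147561604-147726011 and Kdr chr5:75932827-75978458, both on the minus strand and both overlapped by no other annotated gene. Flt4 (chr11:49609263-49652739), Tek (chr4:94739289-94874976) and Vegfc (chr8:54077606-54187096) lie on the plus strand, and Tie1 (chr4:118471191-118490061) and Vegfa (chr17:46016993-46032369) on the minus strand. Nrp1 (chr8:128358604-128503363, plus strand) overlaps 1 gene of its own strand that is not a row of the matrices used here. Angpt1 (chr15:42424723-42676977, minus strand) overlaps the antisense gene Gm17473, which held 289 UMIs against 26011 for Angpt1. Angpt2 (chr8:18690263-18741562, minus strand) lies within Mcph1 on the other strand, which held 12516 UMIs against 3441 for Angpt2. The sources used here do not say how the counting treated strand and introns, and the low Angpt2 counts are uncertain in this respect.

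The libraries held 19335 to 38114 nuclei and 31517272 to 69201159 UMIs, and the median nucleus held 827 UMIs in MTZ-after, 1420 in MTZ-simultaneous, 969 in high-fat and 2026 in untreated. Between 119 and 376 barcodes were shared by a pair of libraries, at most 1.34% of the smaller one. Clusters were named from marker lists that left the 10 members out, and "X-like" below means a cluster with those markers. Endothelial-like nuclei numbered 2053 in MTZ-after, 1985 in MTZ-simultaneous, 4039 in high-fat and 2985 in untreated, and lymphatic-endothelial-like nuclei 168, 271, 74 and 409 in the same order. All 14 endothelial markers were counted, and their summed level in endothelial-like nuclei was 5902 CPM (UMIs of the genes per 1000000 UMIs of the summed nuclei) in MTZ-after, 5825 in MTZ-simultaneous, 4841 in high-fat and 6698 in untreated. T- or NK-like nuclei, which should lack these genes, still held 2753, 2597, 2477 and 1831 CPM of them in that order, and this level is used below as the background of free RNA and remaining doublets. Tissue around the aorta differed between the libraries: brown-adipocyte-like nuclei made up 11.4, 12.3, 2.78 and 42.2% of kept nuclei, and nuclei like those of the adrenal cortex 17.2% of MTZ-after and at most 0.0224% of the others.

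The receptors were endothelial genes in every library. The highest level over the named classes was in an endothelial-like or lymphatic-endothelial-like class in all 4 libraries for 6 of the 10 members: Flt1, Kdr, Flt4, Tek, Tie1 and Vegfc. Flt1 in endothelial-like nuclei reached 502 CPM (476 to 530.1) in MTZ-after, 356 (341 to 371) in MTZ-simultaneous, 347 (333 to 362) in high-fat and 570.0 (554 to 586) in untreated. Its level in T- or NK-like nuclei was 224, 125, 174 and 168 CPM in the same order, so the endothelial level stood above this background in each library by a ratio between 1.999 in high-fat and 3.40 in untreated. The capillary-endothelial-like nuclei, a subset with Gpihbp1, which carries lipoprotein lipase to the capillary lumen, and the carbonic anhydrase Car4 among its leading genes, held the most: 1755 CPM in the 162 nuclei of MTZ-after (interval 1550.0 to 1980.0) and 1878 CPM in the 353 nuclei of untreated (interval 1775 to 1986). MTZ-simultaneous had 43 and high-fat 24 such nuclei, with 1187 CPM (945 to 1471) and 1736 CPM (1288 to 2288). In lymphatic-endothelial-like nuclei Flt1 was at 153, 139, 142 and 140.0 CPM in MTZ-after, MTZ-simultaneous, high-fat and untreated, within the range of the non-endothelial classes.

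Kdr stood out in capillary-like, lymphatic-like and mesothelial-like nuclei, and in a small endothelial-like subset led by Hdc and Adarb2. This Hdc subset held 37 Kdr UMIs in 80 nuclei of MTZ-after, 22 in 53 of MTZ-simultaneous and 85 in 268 of untreated. High-fat had 8 such nuclei. Capillary-endothelial-like nuclei of MTZ-after held 512 CPM (404 to 639.8), and those of untreated 459.6 CPM (409 to 515). Lymphatic-endothelial-like nuclei held 312 CPM (237 to 405) in MTZ-after, 267 (226 to 313) in MTZ-simultaneous, 164 (91.9 to 271) in high-fat and 256 (225 to 290.3) in untreated, on 57, 148, 15 and 247 UMIs. Mesothelial-like nuclei, which line the outer surface of the tissue, held 83.9, 107, 101 and 136 CPM in that order. In the pooled endothelial-like nuclei Kdr stood at 87.1 CPM (76.2 to 99.1), 31.8 (27.5 to 36.6), 26.8 (22.9 to 31.3) and 62.1 (57.1 to 67.5). Against T- or NK-like nuclei this was a ratio of 2.12 (1.34 to 3.54) in MTZ-after and 4.16 (2.57 to 7.19) in untreated, but 0.996 (0.634 to 1.65) in MTZ-simultaneous and 1.68 (0.893 to 3.58) in high-fat. In MTZ-simultaneous and high-fat the pooled level was thus not separated from the background at this depth.

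Flt4 followed the lymphatics. Lymphatic-endothelial-like nuclei, named from 9 markers including Prox1 and Mmrn1, held 203 CPM (143 to 279.5) in MTZ-after, 371 (322 to 426) in MTZ-simultaneous, 274 (177 to 404) in high-fat and 343 (307 to 382) in untreated. The endothelial-like nuclei held 39.4, 25.3, 22.1 and 26.5 CPM, and the T- or NK-like nuclei 16.4, 15.2, 6.38 and 12.3 CPM. Lymphatic-like nuclei were 0.646% of the kept nuclei in MTZ-after, 1.52% in MTZ-simultaneous, 0.211% in high-fat and 1.97% in untreated, yet they held 5.75, 26.6, 3.81 and 28.0% of all Flt4 UMIs.

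Tek and Tie1, the angiopoietin receptor and its partner, were spread over all endothelial subsets. Tek in endothelial-like nuclei was at 655 CPM (625 to 687) in MTZ-after, 588 (569 to 607) in MTZ-simultaneous, 607 (588 to 627) in high-fat and 709 (692 to 727) in untreated, with 324, 193, 311 and 191 CPM in T- or NK-like nuclei. The subset led by Lrrc3b, Col4a3 and Igf2 held 823, 716, 963 and 858 CPM, and lymphatic-endothelial-like nuclei 395, 323, 361 and 399 CPM. Tie1 in endothelial-like nuclei was at 209 CPM (192 to 227), 273 (260 to 286), 206 (195 to 218) and 248 (237 to 258), against 61.5, 98.9, 97.2 and 76.5 CPM in T- or NK-like nuclei. In high-fat the lymphatic-like value of Tie1 was higher, at 219 CPM (134 to 338, 20 UMIs), with an interval that holds the endothelial-like value. Among the subsets, Tie1 was at 259, 286, 273 and 271 CPM in the subset led by Fam155a and Sele and 208, 259, 225 and 238 CPM in the Lrrc3b subset.

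**Figure D1:**
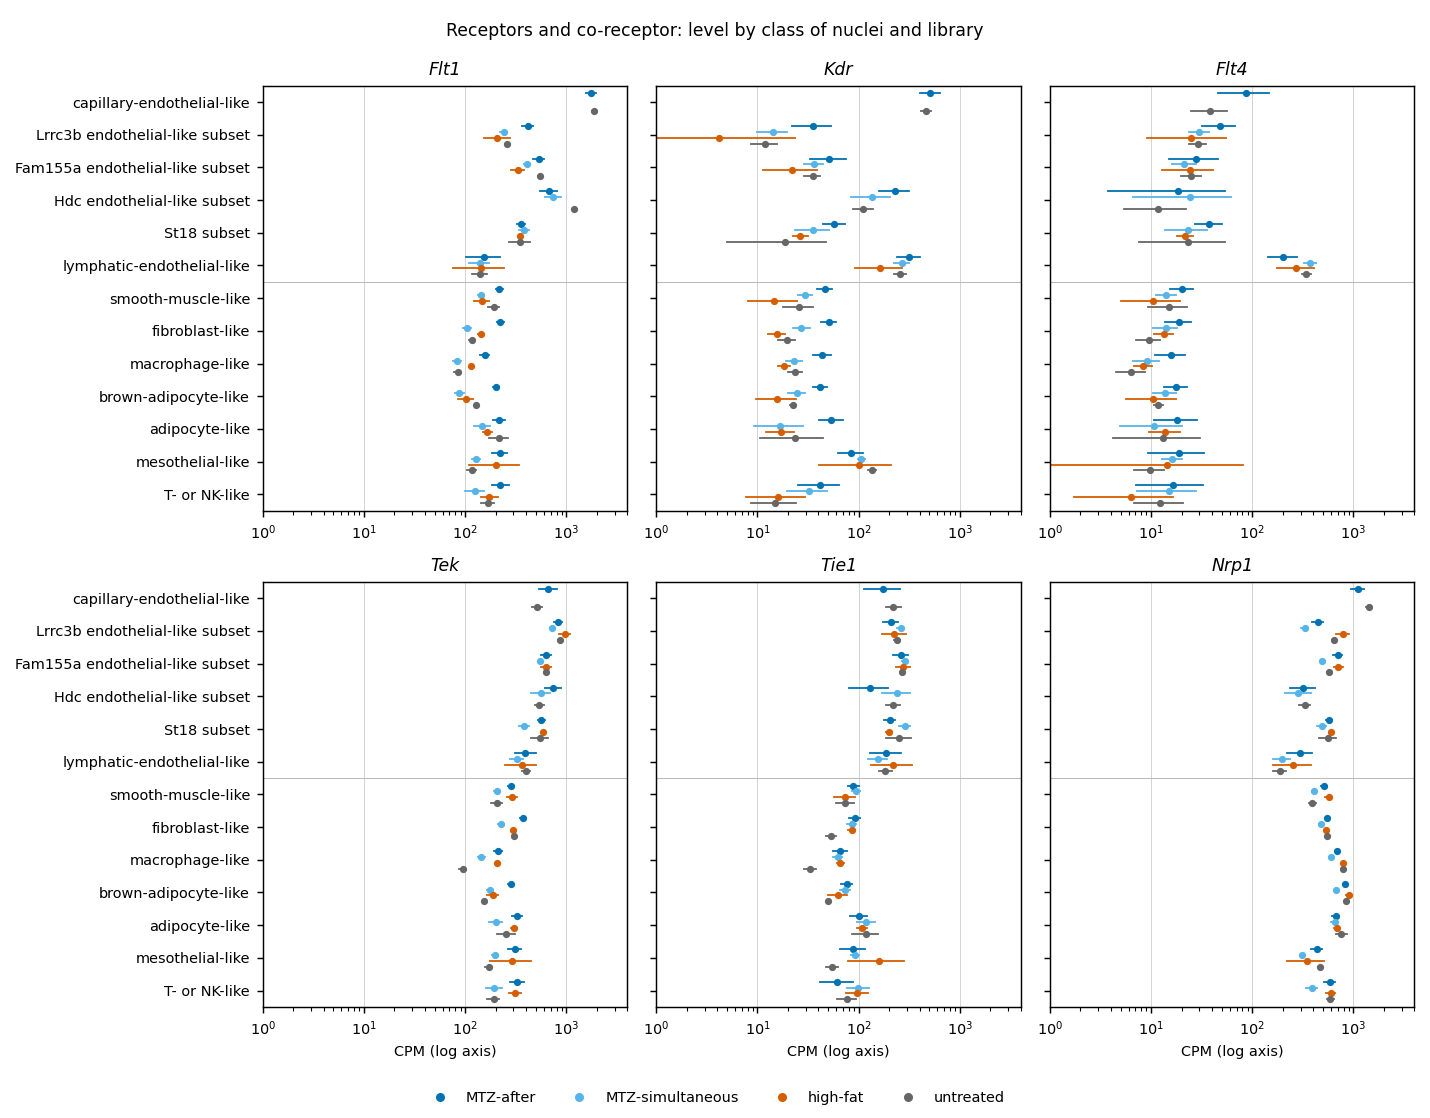
Level of the 5 receptor genes and of Nrp1 in CPM (x axis, log scale) by class of nuclei (y axis) in the 4 libraries (colours); points are summed counts, lines 95% Poisson intervals, and classes with under 50 nuclei or 0 counts in a library and the Nrg1 subset are not drawn. Flt1 peaks in capillary-endothelial-like nuclei (1755 CPM in MTZ-after and 1878 in untreated), Flt4 in lymphatic-endothelial-like nuclei, and Nrp1 in capillary-endothelial-like nuclei (1097 and 1411 CPM).

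Nrp1, the co-receptor, was not restricted to endothelium. Its highest named class was the brown-adipocyte-like one in every library, at 834 CPM in MTZ-after, 679.6 in MTZ-simultaneous, 893 in high-fat and 853 in untreated. Macrophage-like nuclei held 689, 606, 779.6 and 792 CPM. Pooled endothelial-like nuclei held 579, 429, 626 and 639 CPM, close to the 582, 389, 599 and 592 CPM of T- or NK-like nuclei. Within the endothelium it stood out in capillary-endothelial-like nuclei, with 1097 CPM (936 to 1278) in those of MTZ-after and 1411 CPM (1321 to 1505) in those of untreated. Lymphatic-like nuclei were low, at 296, 195, 252 and 188 CPM in MTZ-after, MTZ-simultaneous, high-fat and untreated.

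The ligands came from different nuclei. Vegfa was highest in brown-adipocyte-like nuclei, at 879 CPM (849 to 911) in MTZ-after, 743 (718 to 769) in MTZ-simultaneous, 832 (784 to 882) in high-fat and 754 (745 to 764) in untreated. Adipocyte-like nuclei followed, at 532, 718, 561 and 529.9 CPM, and in MTZ-simultaneous both classes were close. Lymphatic-like nuclei held 181, 177, 186 and 166 CPM and macrophage-like nuclei 204, 181, 201 and 137 CPM, near the low end of the range. Brown-adipocyte-like nuclei were 11.4, 12.3, 2.78 and 42.2% of kept nuclei, as given above, and their share of all Vegfa UMIs was 25.1% in MTZ-after, 28.0% in MTZ-simultaneous, 7.82% in high-fat and 75.7% in untreated. In untreated, 2048 nuclei held at least 5 Vegfa UMIs each, and 1805 of them were brown-adipocyte-like. In MTZ-after 22.2% of Vegfa UMIs lay in nuclei like those of the adrenal cortex.

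Angpt1 had the same leading class. Brown-adipocyte-like nuclei held 308 CPM (290.0 to 327) in MTZ-after, 244 (229 to 259) in MTZ-simultaneous, 315 (286 to 347) in high-fat and 243 (238 to 249) in untreated, and adipocyte-like nuclei 218, 196, 206 and 197 CPM. Smooth-muscle-like nuclei, the mural cells of the wall, held 174, 139, 123 and 148 CPM. Endothelial-like nuclei held 139, 117, 75.8 and 152 CPM, and T- or NK-like nuclei 152, 129, 73.3 and 92.3 CPM. The ratio of the endothelial-like to this background level had an interval above 1 in untreated (1.65, 1.35 to 2.03), and intervals that hold 1 in the other libraries. The Lrrc3b subset held 213, 197, 125 and 239.6 CPM of Angpt1, more than the Fam155a subset at 116, 63.5, 53.5 and 54.0 CPM.

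Vegfc was the endothelial ligand. Endothelial-like nuclei held 292 CPM (272 to 313) in MTZ-after, 278 (265 to 292) in MTZ-simultaneous, 124 (115 to 133) in high-fat and 324 (312 to 336) in untreated, against 197, 109.5, 78.1 and 74.7 CPM in T- or NK-like nuclei. The Lrrc3b subset held 507, 420.4, 300.2 and 482 CPM, above the Fam155a subset at 229.9, 173, 127 and 185 CPM in each library. Fibroblast-like nuclei held 185, 171, 118 and 177 CPM, and in high-fat their interval overlapped that of endothelial-like nuclei. Lymphatic-like nuclei, which carry its receptor Flt4, held 82.2, 144, 21.9 and 102 CPM of Vegfc.

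Angpt2 was low in every class. Endothelial-like nuclei held 30.3 CPM (24.0 to 37.7) in MTZ-after, 17.0 (13.9 to 20.6) in MTZ-simultaneous, 29.5 (25.3 to 34.1) in high-fat and 18.8 (16.1 to 21.9) in untreated, and T- or NK-like nuclei 43.1, 9.13, 28.7 and 9.67 CPM. The class with its highest level changed from library to library, with overlapping intervals. In high-fat 2 small subsets stood higher: the Nrg1 subset (57 nuclei) at 172 CPM on 14 UMIs, and the Fam155a subset at 122 CPM on 66 UMIs. In the Fam155a subset 15 of 145 nuclei held a UMI, the highest held 26, and the 5 highest held 52 of the 66 (78.8%).

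**Figure D2:**
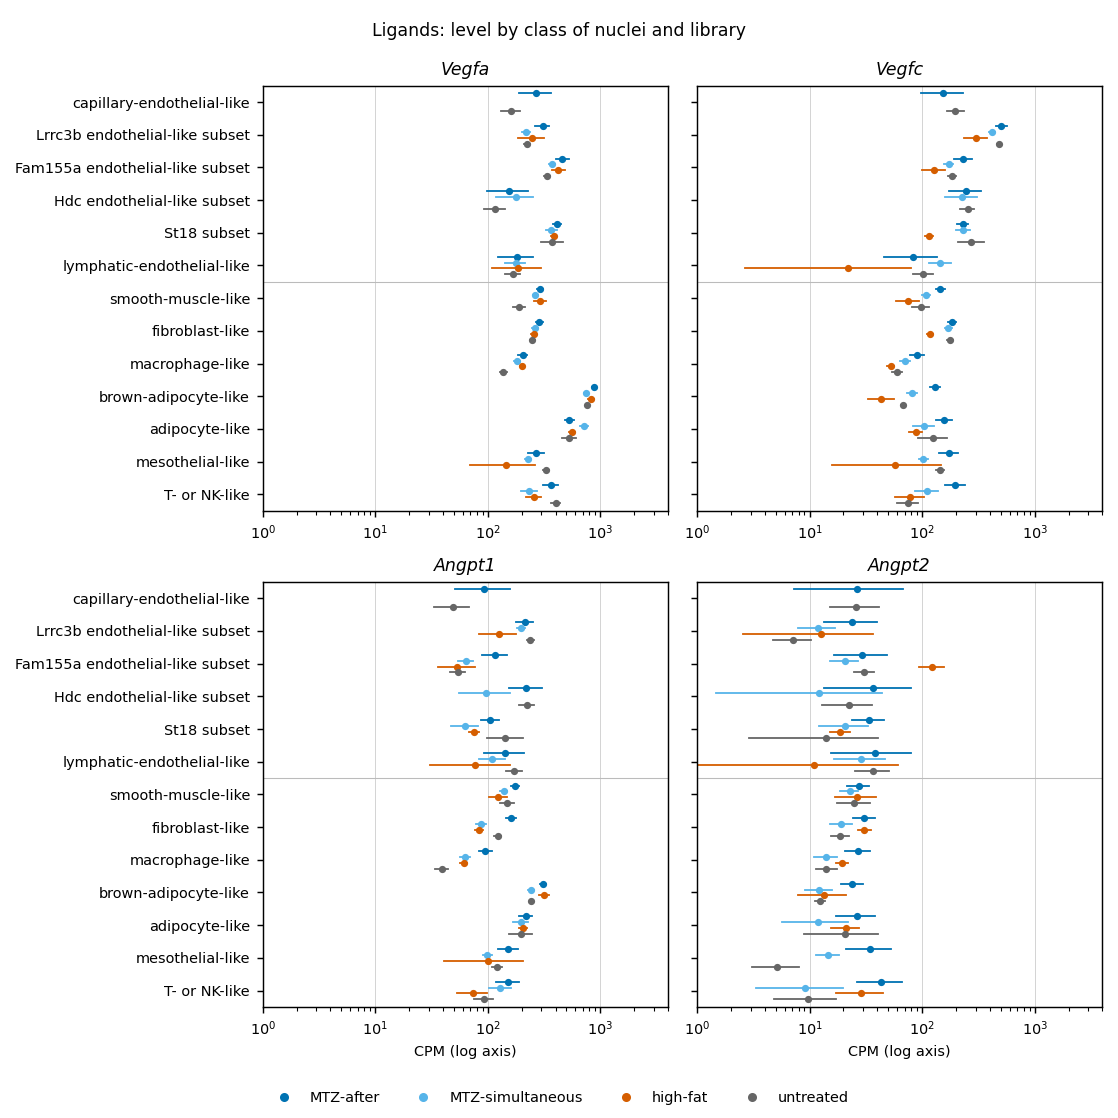
Level of the 4 ligand genes in CPM (x axis, log scale) by class of nuclei (y axis) in the 4 libraries (colours), with 95% Poisson intervals; classes with under 50 nuclei or 0 counts and the Nrg1 subset are not drawn. Vegfa and Angpt1 are highest in brown-adipocyte-like nuclei, Vegfc in the Lrrc3b endothelial-like subset, and Angpt2 stays under 50 CPM in the classes drawn except in the Fam155a subset of high-fat (122 CPM).

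**Figure D3:**
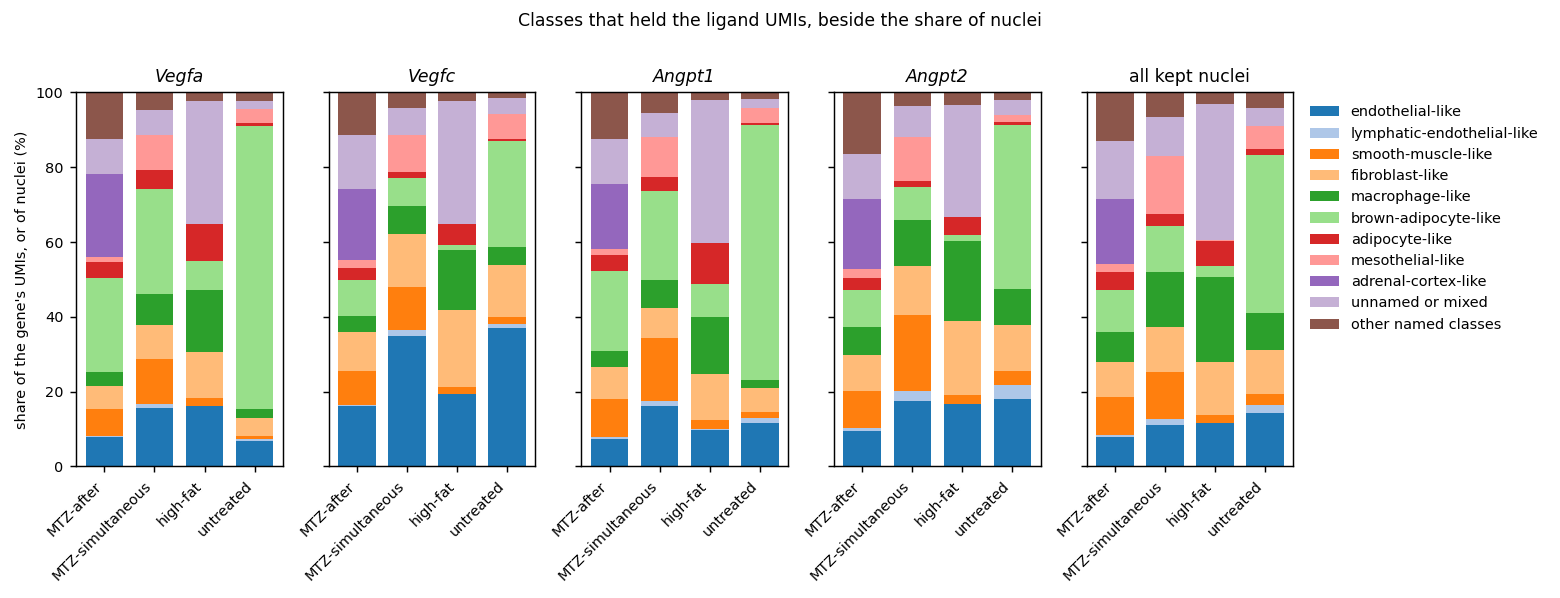
Share of each ligand gene's UMIs held by each class (stacked bars, %) in each library, with the share of kept nuclei in the last panel. Brown-adipocyte-like nuclei hold 75.7% of Vegfa UMIs in untreated and 7.82% in high-fat; endothelial-like nuclei hold 16.1 to 37.0% of Vegfc UMIs.

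The endothelial-like nuclei were not the same mixture in each library, and this bears on every pooled comparison. The subset led by St18, Ms4a7 and Atp6v0d2 made up 53.7% of them in MTZ-after, 19.0% in MTZ-simultaneous, 90.8% in high-fat and 3.82% in untreated. The subset has no name of its own. Relative to the other subsets 0 of 14 endothelial markers were enriched in it, as in the Lrrc3b and Fam155a subsets, and genes known from macrophages (Ms4a7, Atp6v0d2, Aoah, Cd5l and Gpnmb) were among its leading genes. Its median doublet score was 0.0907, beside 0.0948 in the mixed subset that was left out and 0.0378 to 0.0528 in the other endothelial-like subsets. Ms4a7 and Msr1, 2 of the 11 macrophage markers, were enriched in it, and the macrophage marker sum over its nuclei was 944, 1014, 1078 and 908 CPM in the same order, beside 826, 815, 1470.0 and 632 CPM in T- or NK-like nuclei. All 14 endothelial markers were counted in it, at a sum of 4997, 4607, 4676 and 4992 CPM, between the T- or NK-like and the pooled endothelial-like sums of each library. The part of this subset in the pooled differences was not tested beyond the values given below without it. The Lrrc3b subset made up 25.0, 40.3, 3.39 and 53.1%, and the capillary-like nuclei 7.89, 2.17, 0.594 and 11.8%. A single cluster, led by Fam155a, Nfasc and Sele and called cluster 7 here, held 779, 772, 3145 and 660 endothelial-like nuclei, and each comparison of the members is also given within it. Its make-up was not the same in each library either, since 75.3, 34.8, 93.99 and 10.9% of these nuclei belonged to the St18 subset. Within cluster 7 Flt1 was at 435, 417, 358 and 540.2 CPM, and Tek at 605, 504, 585 and 627 CPM.

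**Figure D4:**
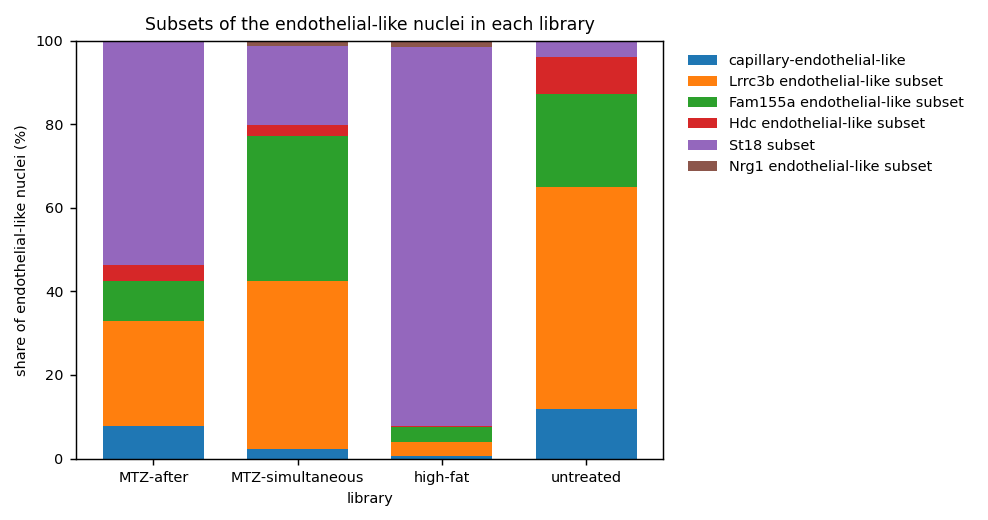
Share of the endothelial-like nuclei (y axis, %) in each subset (colours) in the 4 libraries (x axis). The St18 subset holds 90.8% in high-fat and 3.82% in untreated, and the capillary-like and Lrrc3b subsets are largest in untreated (11.8 and 53.1%).

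High-fat was compared with untreated to see how the levels of these genes differed between the libraries. A call needs a difference of at least 2-fold in CPM, with 50 or more UMIs where the gene is higher. In pooled endothelial-like nuclei 3 members were called lower and 0 higher; over all 11115 genes with enough counts 2.47% were called lower and 6.05% higher. Kdr was at 26.8 CPM in high-fat and 62.1 in untreated (ratio 0.432, 0.361 to 0.515). Vegfc was at 124 CPM in high-fat and 324 in untreated (0.381, 0.351 to 0.413). Angpt1 was at 75.8 CPM in high-fat and 152 in untreated (0.499, 0.448 to 0.555), just past the 2-fold limit, and this call was kept in 7 of 15 alternative settings. They encode the main VEGF receptor, the lymphatic ligand and the vessel-stabilising angiopoietin. Flt1 stood at 347 CPM in high-fat and 570.0 in untreated (0.609, 0.579 to 0.641), and Vegfa at 377 and 256 CPM (1.48, 1.39 to 1.56), neither past 2-fold. Vegfa in T- or NK-like nuclei was at 255 CPM in high-fat and 399.9 in untreated (0.638, 0.529 to 0.765). The endothelial-like Vegfa level was thus above this background in high-fat and below it in untreated. Tek, Tie1, Flt4 and Nrp1 had endothelial-like ratios between 0.833 and 0.98. The median log2 ratio of the 10 members was -0.26, beside 0.08 over all genes.

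Within cluster 7 alone no member was called between high-fat and untreated, where 0.92% of 9787 genes were called lower and 7.32% higher. Kdr was at 27.1 CPM in high-fat and 34.5 in untreated (0.787, 0.609 to 1.018) and Vegfc at 113 and 174.5 CPM (0.648, 0.576 to 0.729). Angpt1 had a ratio above 1 there, at 70.3 CPM in high-fat and 50.9 in untreated (1.38, 1.15 to 1.67). Both levels were below those of T- or NK-like nuclei, 73.3 CPM in high-fat and 92.3 in untreated. Flt1 kept its size in cluster 7, at 358 CPM in high-fat and 540.2 in untreated (0.662, 0.62 to 0.707). In the St18 subset Flt1 was nearly equal, at 348 CPM in high-fat and 347 in untreated (1.00, 0.795 to 1.28), with 114 untreated nuclei, and Vegfc was at 115 and 273 CPM (0.42, 0.321 to 0.559). Vegfc was also lower in high-fat in the Lrrc3b subset (300.2 and 482 CPM, 0.623, 0.485 to 0.788) and in the Fam155a subset (127 and 185 CPM, 0.6905, 0.53 to 0.887). Without the St18 subset 371 nuclei of high-fat and 2871 of untreated remained, with Kdr at 28.7 and 63.2 CPM (0.455, 0.294 to 0.673), still called lower, and Vegfc at 173.5 and 325 CPM (0.533, 0.451 to 0.627) and Angpt1 at 76.3 and 152 CPM (0.502, 0.388 to 0.639), both short of 2-fold. Angpt2 was called higher in that set, at 91.7 and 18.9 CPM (4.85, 3.68 to 6.35). Of 10692 genes 0.561% were called higher and 4.405% lower there. The mixture still differed in that set. Capillary-like nuclei numbered 24 in high-fat and 353 in untreated, with 5 of 26 and 302 of 551 Kdr UMIs. The Hdc subset numbered 8 and 268 nuclei, with 85 Kdr UMIs in untreated. Kdr was not called in the Fam155a subset (22.2 and 35.0 CPM, 0.633, 0.318 to 1.148) or the St18 subset (26.5 and 18.5 CPM, 1.43, 0.547 to 5.33). The Lrrc3b subset held 1 and 46 Kdr UMIs. In T- or NK-like nuclei Vegfc was at 78.1 CPM in high-fat and 74.7 in untreated (1.04, 0.72 to 1.503). Another endothelial cluster, led by Lrrc3b and called cluster 14 here, held 825 endothelial-like nuclei in high-fat and 1688 in untreated. In it 2 members were called lower and 0 higher, beside 180 lower and 139 higher of 8607 genes. Vegfc was called lower there, at 188 and 456 CPM (0.412, 0.349 to 0.485). Kdr was not called, at 14.2 and 13.5 CPM (1.055, 0.515 to 1.99), on 12 and 57 UMIs.

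MTZ-after was compared with high-fat to see whether these genes differed between a library with MTZ after established disease and one without it. In pooled endothelial-like nuclei 2 members were called higher and 0 lower, beside 2.67% higher and 1.96% lower of 10331 genes. Kdr was at 87.1 CPM in MTZ-after and 26.8 in high-fat (3.25, 2.65 to 3.99), and Vegfc at 292 and 124 CPM (2.36, 2.14 to 2.62). Angpt1 at 139 and 75.8 CPM (1.84, 1.60 to 2.11), Flt4 at 39.4 and 22.1 CPM (1.78, 1.37 to 2.32) and Flt1 at 502 and 347 CPM (1.45, 1.35 to 1.55) were higher in MTZ-after by less than 2-fold, although Angpt1 passed 2-fold in some alternative settings (up to 2.63). The T- or NK-like level of Angpt1 was also higher, at 152 CPM in MTZ-after and 73.3 in high-fat (2.07). The part of this background in the endothelial-like Angpt1 ratio was not tested. Tek, Tie1, Angpt2, Vegfa and Nrp1 had endothelial-like ratios between 0.925 and 1.08. The median log2 ratio of the members was 0.32, beside -0.04 over all genes. Within cluster 7 Vegfc was called higher, at 236 CPM in MTZ-after and 113 in high-fat (2.09, 1.81 to 2.40), and Kdr, at 53.6 and 27.1 CPM (1.98, 1.46 to 2.65), was just short of 2-fold; 1.16% of 9762 genes were called higher there and 2.97% lower. Without the St18 subset Kdr was at 111.6 CPM in MTZ-after and 28.7 in high-fat (3.88, 2.56 to 6.12) and Angpt1 at 167 and 76.3 CPM (2.19, 1.67 to 2.91), both called higher, while Vegfc was at 344 and 173.5 CPM (1.98, 1.65 to 2.39). Among the subsets Vegfc was at 507 CPM in MTZ-after and 300.2 in high-fat in the Lrrc3b subset (1.69, 1.30 to 2.21), and at 229.9 and 127 CPM in the Fam155a subset (1.805, 1.33 to 2.47). The St18 subset held 229 and 115 CPM of Vegfc (1.993, 1.72 to 2.30). Its Kdr, at 57.25 and 26.5 CPM (2.16, 1.59 to 2.91), was called higher, beside 97 genes higher and 231 lower of 9832. Kdr in the Fam155a subset was at 51.1 and 22.2 CPM (2.31, 1.12 to 5.02), on 26 and 12 UMIs. Without the St18 subset Angpt2 was called lower, at 27.6 and 91.7 CPM (0.30, 0.201 to 0.443). In that set 4.54% of 5462 genes were called higher and 0.897% lower. Capillary-like nuclei were 162 of its 950 nuclei in MTZ-after and 24 of its 371 in high-fat, with 77 and 5 of the Kdr UMIs. The Hdc subset was 80 and 8 of these nuclei, with 37 Kdr UMIs in MTZ-after. Within cluster 14 no member was called, beside 94 genes higher and 26 lower of 4316. Vegfc was at 363 CPM in MTZ-after and 188 in high-fat there (1.93, 1.59 to 2.34).

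Higher Kdr and Vegfc levels in MTZ-after than in high-fat were also seen outside the endothelium. The comparison was made in 9 classes, the lymphatic-like one and those with at least 200 nuclei in each library. The Kdr ratio was above 1 in 9 of 9, with all 9 intervals above 1. Kdr was called higher in 6, the endothelial-like class among them. Mesothelial-like nuclei, with 564 in MTZ-after and 62 in high-fat, are not among them, and their Kdr ratio was below 1, at 83.9 and 101 CPM (0.832, 0.375 to 2.18) on 49 and 7 UMIs. The share of all genes called higher was 0.676% in B-cell-like, 2.95% in T- or NK-like, 1.24% in adipocyte-like, 4.93% in brown-adipocyte-like, 3.36% in fibroblast-like, 5.46% in lymphatic-like, 2.12% in macrophage-like and 5.01% in smooth-muscle-like nuclei. The Kdr ratio ran from 1.90 in lymphatic-like to 3.34 in B-cell-like nuclei. In T- or NK-like nuclei Kdr was at 41.0 CPM in MTZ-after and 15.9 in high-fat (2.57, 1.15 to 6.15), on 20 and 10 UMIs, and Vegfc at 197 and 78.1 CPM (2.52, 1.77 to 3.63). Vegfc was above 1 in all 9 classes, with 7 intervals above 1, and was called higher in 3, the endothelial-like class among them. In mesothelial-like nuclei Vegfc was at 173 CPM in MTZ-after and 57.6 in high-fat (3.00, 1.14 to 11.2), on 101 and 4 UMIs. Neither gene is known as a T-cell gene, so the level used here as background was itself higher in MTZ-after, and its part in the endothelial ratios was not tested. Over all kept nuclei Kdr was at 56.4 CPM in MTZ-after and 19.7 in high-fat (2.86, 2.64 to 3.11).

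MTZ-simultaneous was compared with the same high-fat library, so the 2 comparisons with high-fat are not independent of each other. In pooled endothelial-like nuclei 1 member was called higher and 0 lower, beside 1.89% higher and 3.75% lower of 10774 genes. Vegfc was at 278 CPM in MTZ-simultaneous and 124 in high-fat (2.25, 2.06 to 2.46). Kdr was at 31.8 and 26.8 CPM (1.19, 0.958 to 1.47) and Flt1 at 356 and 347 CPM (1.024, 0.964 to 1.09), with intervals that hold 1. Tie1 was at 273 CPM in MTZ-simultaneous and 206 in high-fat (1.32, 1.23 to 1.42), Angpt1 at 117 and 75.8 CPM (1.55, 1.37 to 1.74), and Angpt2 at 17.0 and 29.5 CPM (0.576, 0.448 to 0.737). Nrp1 was at 429 and 626 CPM (0.685, 0.652 to 0.72) and was below 1 in all 9 of the classes compared, with 7 intervals below 1. Tek was also below 1 in these 9 classes, between 0.621 and 0.969. For both genes the lowest ratio was in T- or NK-like nuclei, at 0.65 for Nrp1 and 0.621 for Tek. The median log2 ratio of the members was 0.11, beside 0.02 over all genes. The T- or NK-like level of Angpt1 was also higher, at 129 CPM in MTZ-simultaneous and 73.3 in high-fat (1.76, 1.22 to 2.58). That of Angpt2 was also lower, at 9.13 and 28.7 CPM (0.318, 0.103 to 0.836), on 6 and 18 UMIs. That of Tie1 was close in both libraries, at 98.9 and 97.2 CPM. The part of this background in the endothelial-like Angpt1, Angpt2, Nrp1 and Tek ratios was not tested. The Kdr ratio was above 1 in 8 of the 9 classes, with 3 intervals above 1. It was called higher in smooth-muscle-like nuclei, at 29.7 and 14.7 CPM (2.02, 1.17 to 3.79), beside 454 genes higher of 10405. Over all kept nuclei Kdr was at 41.95 and 19.7 CPM (2.13, 1.96 to 2.32), called higher beside 1292 of 16164 genes. Mesothelial-like nuclei held 33.8% of Kdr UMIs in MTZ-simultaneous and 0.773% in high-fat.

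Within cluster 7 no member was called between MTZ-simultaneous and high-fat, where 0.624% of 9779 genes were called higher and 3.76% lower. Vegfc was at 170.3 CPM in MTZ-simultaneous and 113 in high-fat (1.51, 1.33 to 1.70), and Angpt1 at 59.8 and 70.3 CPM (0.85, 0.704 to 1.024). Vegfc was above 1 in the 9 classes compared, with 6 intervals above 1. Its highest ratio was in lymphatic-like nuclei (6.59, 1.77 to 55.3), where the high-fat library held 2 Vegfc UMIs. Vegfc was called higher in the St18 subset, at 230.2 and 114.9 CPM (2.004, 1.69 to 2.36), beside 29 genes higher and 338 lower of 9831. It was not called in the Lrrc3b subset (1.40, 1.10 to 1.80) or the Fam155a subset (1.36, 1.05 to 1.78). In cluster 14 Vegfc was called higher, at 386 and 188 CPM (2.054, 1.74 to 2.44), beside 212 genes higher and 88 lower of 8166. Without the St18 subset Vegfc was at 285.5 CPM in MTZ-simultaneous and 173.5 in high-fat (1.645, 1.40 to 1.95), and Angpt2, called lower there, at 16.4 and 91.7 CPM (0.179, 0.131 to 0.245), beside 0.445% of 9881 genes called lower. The high-fat Angpt2 level in these sets holds the few nuclei of the Fam155a subset described above. In T- or NK-like nuclei Vegfc was at 109.5 CPM in MTZ-simultaneous and 78.1 in high-fat (1.40, 0.962 to 2.06).

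**Figure D5:**
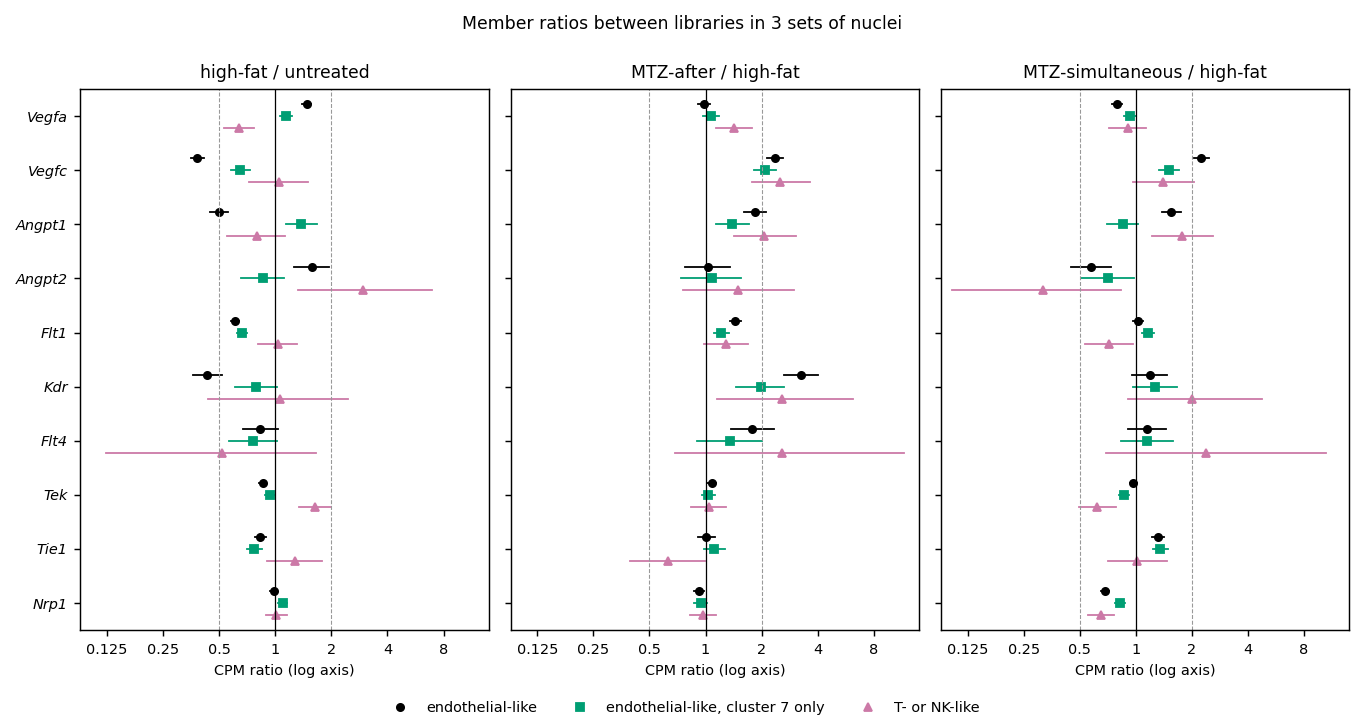
CPM ratio (x axis, log scale; dashed lines at 0.5 and 2) of each member (y axis) in the 3 comparisons, for endothelial-like nuclei (circles), those of cluster 7 (squares) and T- or NK-like nuclei (triangles), with 95% counting intervals. Vegfc lies at 0.381 for high-fat against untreated and at 2.36 and 2.25 for the MTZ libraries against high-fat; Kdr lies at 3.25 for MTZ-after, with T- or NK-like nuclei at 2.57.

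Shares of nuclei with a UMI depend on depth and were also taken at matched depth. Of the endothelial-like nuclei, a Vegfc UMI was found in 24.2% in MTZ-after, 35.7% in MTZ-simultaneous, 14.04% in high-fat and 34.5% in untreated, at median depths of 898, 2068, 1084 and 2082 UMIs. After each nucleus was thinned to 500 UMIs the shares were 11.8, 10.9, 5.32 and 12.3%. In T- or NK-like nuclei, with median depths of 751, 1162, 911 and 1400 UMIs, the thinned shares were 8.68, 6.62, 4.503 and 2.46%. The high-fat share of 5.32% (4.65 to 6.06) and its T- or NK-like value of 4.503% (2.91 to 6.63) had overlapping intervals. On the CPM scale the same high-fat nuclei were above this background, at 124 CPM (115 to 133) against 78.1 (57.8 to 103) in T- or NK-like nuclei (1.58, 1.18 to 2.16), so the measures differ here and the share is not read as background. The untreated share of 12.3% was above its T- or NK-like value. Kdr gave 8.82, 7.76, 3.71 and 11.8% unthinned and 3.60, 2.22, 1.04 and 3.92% thinned, against 2.56, 1.96, 1.501 and 0.877% thinned in T- or NK-like nuclei. The high-fat Kdr share was below its T- or NK-like value, while the CPM ratio given above was over 1 with an interval that holds 1 (1.68, 0.893 to 3.58). The T- or NK-like level rested on 10 Kdr UMIs, so Kdr was not separated from this background. Macrophage-like nuclei of high-fat held 18.3 CPM of Kdr, with an interval below that of the endothelial-like nuclei at 26.8 CPM. Flt1 was above its background in each library, at 19.4, 13.4, 14.7 and 19.9% thinned, against 8.68, 6.62, 7.69 and 7.54%.

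A list of 33 further genes of the pathway (other ligands, ligand processing, receptor modulators, signalling and feedback, response genes and oxygen sensing) was examined in endothelial-like nuclei. Between high-fat and untreated, 24 had enough counts, and 2 were called higher and 2 lower, beside 6.05% higher and 2.47% lower over all genes. Svep1, a matrix protein known from zebrafish to act through Tie1, was at 71.9 CPM in high-fat and 23.6 in untreated (3.04, 2.58 to 3.60). Ccbe1, a secreted protein that promotes VEGF-C processing, was at 32.4 and 7.17 CPM (4.52, 3.40 to 6.09). T- or NK-like nuclei held 112 CPM of Svep1 in high-fat and 108 in untreated (1.03, 0.758 to 1.40), and 41.4 and 39.5 CPM of Ccbe1 (1.05, 0.621 to 1.73). The endothelial-like levels were below these in both libraries. Spry4, a feedback inhibitor of receptor tyrosine kinase signalling, was at 2.95 CPM in high-fat and 8.73 in untreated (0.337, 0.19 to 0.569), and Egln3, an oxygen-sensing prolyl hydroxylase, at 2.13 and 11.4 CPM (0.186, 0.0959 to 0.333). The median log2 ratio of the list was -0.33. Within cluster 7, 21 genes of the list had enough counts, and 2 were called higher and 0 lower. Over all genes 7.32% were called higher there and 0.92% lower.

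Between MTZ-after and high-fat 22 genes of the list had enough counts and 0 were called, beside 2.67% higher and 1.96% lower over all genes, with a median log2 ratio of 0.07. Between MTZ-simultaneous and high-fat 22 had enough counts, and 1.89% of all genes were called higher and 3.75% lower. Vegfd, a ligand of Flt4, was called higher, at 48.5 CPM in MTZ-simultaneous and 23.7 in high-fat (2.04, 1.67 to 2.51), and Svep1 lower, at 35.9 and 71.9 CPM (0.4996, 0.423 to 0.589). In T- or NK-like nuclei Vegfd was at 42.6 CPM in MTZ-simultaneous and 20.7 in high-fat (2.06, 1.03 to 4.32). Within cluster 7, 21 genes of the list had enough counts in this comparison and 0 were called, beside 0.624% higher and 3.76% lower over all genes.

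The genes whose levels ran most alike with each member were found over 59 profiles of class and library, from 19 classes and subsets and 13745 genes, as Pearson's r of log2(CPM + 1). The profiles share libraries and depth, so r is a description. Tek ran with Fgd5 (0.952), Ptprb (0.902) and Pecam1 (0.90), the last an endothelial junction protein and Ptprb an endothelial phosphatase. Tie1 ran with Tal1 (0.934), Rgs3 (0.933) and Egfl7 (0.923). Flt1 ran with Cyyr1 (0.894), Adgrl4 (0.882) and Eng (0.818), all marker genes of the endothelial list. Flt4 ran with the lymphatic marker Mmrn1 (0.822), and Kdr with Tll1 (0.789). Vegfc ran with Jcad (0.809), Fam135a (0.802) and Jam2 (0.798), and Vegfa with Ephx2 (0.843). Angpt1 had Luc7l2 (0.771), Angpt2 Dcp2 (0.738) and Nrp1 Zfp715 (0.661) as nearest, the lowest values of the 10.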

How the data were processed

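The authors deposited 1 filtered matrix of whole-number UMI counts per library, made with Cell Ranger 7.0.1 per the file headers; the submitters' processing notes add STAR and the mm10 build. The kit was 10x 3' version 3.1, per the labels' protocols. Whether intronic reads were counted is not given in the sources used here. Nuclei with at least 300 genes and at most 10% mitochondrial counts were kept, the highest 8% of Scrublet scores in each library were removed (ties kept), and 25996, 17845, 35104 and 20773 nuclei stayed in MTZ-after, MTZ-simultaneous, high-fat and untreated. Scanpy 1.11.5 gave 2000 variable genes, scaled (a choice made after seeing the data), 30 principal components and Leiden clusters at resolution 1, with members and listed pathway genes left out. Clusters were named from markers (at least 3, enriched 2-fold); endothelial clusters were split again at resolution 0.5, and a mixed subset of 4302 nuclei was left out. Counts were summed per library and class. CPM has exact Poisson, shares exact Clopper-Pearson and ratios exact conditional intervals; with 1 library per group there is no test. Calls need a 2-fold difference and 50 UMIs. All members are named; listed pathway genes when called; the 3 most alike genes were found per member. The members and lists were chosen with earlier results of these data known. On simulated counts for high-fat against untreated in endothelial-like nuclei (10739 genes), 100 of 100 genes changed 4-fold and 50 of 50 reduced 4-fold were called, 0 of 50 changed 1.5-fold, and 5 of 10539 unchanged genes. The simulated counts held Poisson counting error only, so they check how the rule runs and give no error rate for these libraries. Python 3.11.15, scipy 1.17.1, R 4.3.3 and edgeR 4.0.16 (TMM factors only) were used. Alternatives are in the closing section.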

Additional observations from a re-analysis of the deposited data

How the results depend on the processing

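Each library is 1 sample, so no setting can speak for the variation between animals, and the pooled Kdr and Angpt1 levels lie near the background of free RNA in some libraries. Over 15 alternative settings the number of members called was within 1.5 times the reported one in 86 of 102 counts. The number with an endothelial highest class was 6, or 5 in cluster 7 alone, at resolution 2 and without doublet removal. Kdr ranged over 0.256 to 0.787 for high-fat against untreated and 1.98 to 3.88 for MTZ-after against high-fat; Vegfc over 0.345 to 0.648, 1.83 to 2.57 and, for MTZ-simultaneous, 1.51 to 2.30. Angpt1 ranged over 0.367 to 1.38 for high-fat against untreated, where its call was kept in 7 of 15 settings, and over 1.40 to 2.63 for MTZ-after against high-fat, where it stayed under 2-fold in 9 of 15. Of the 450 member ratios 300 stayed within their counting interval, 149 moved further and 1 changed sides: Angpt1 for high-fat against untreated was 1.38 within cluster 7. Both Angpt1 levels behind that ratio were below those of T- or NK-like nuclei. Added after seeing the data were cluster 7 alone, the sets without the St18 subset or with the mixed subset, and unscaled genes. For high-fat against untreated, cluster 7 alone gave 0 lower members; both the set without the St18 subset and the filter of 500 genes and 5% mitochondrial counts (415 high-fat endothelial-like nuclei) gave 1 lower and 1 higher, the higher being Angpt2 (4.85 and 4.07). For MTZ-after against high-fat, cluster 7 alone and unscaled genes gave 1 higher, and the set without the St18 subset and the stricter filter 1 lower, Angpt2 (0.30 and 0.381). For MTZ-simultaneous against high-fat, cluster 7 alone, unscaled genes, the set without the St18 subset and clustering with the members kept in gave 0 higher; the set without the St18 subset, the stricter filter and centring by library gave 1 lower, Angpt2 (0.179, 0.199 and 0.433). Of the 83 high-fat Angpt2 UMIs in the set without the St18 subset, 52 lay in the 5 Fam155a-subset nuclei described above, which the counting intervals do not cover. The cause of these differences between settings was not tested. No paired analysis was possible because each group has 1 library.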
